A study of Mus musculus with 3 samples.

Results

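Tnfaip3 and 8 further genes of the ubiquitin-linked feedback machinery of inflammatory signalling were followed in mouse macrophages: Tnip1, Tnip3, Tnfaip2, Traf1, Traf2, Birc2, Birc3 and Cyld. They were taken by gene symbol from the GENCODE M1 annotation of mm9, and all 9 were found among the 22350 protein-coding genes on chromosomes 1 to 19 and X. What was measured is the amount of RNA polymerase II (Pol_II) phosphorylated at serine 5 of its C-terminal repeat (Ser5), by ChIP-Seq with the ab5131 antibody. Ser5 phosphorylation marks Pol_II that has started transcription. The cells were primary macrophages grown for 7 days from bone marrow of female Fvb mice. No mouse carried an engineered allele by the labels, which give no age and do not say whether marrow of several animals was pooled.

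One Ser5 library came from untreated cells and one from cells given 10 ng/ml lipopolysaccharide (LPS, a bacterial outer-membrane component sensed by TLR4) for 2 h. The other library was input DNA of untreated cells, sequenced without antibody. Because each condition has a single library, the variation between cultures is unknown and no difference was tested. Every interval given here is a 95% interval for counting error only, and amplified tags are not independent molecules.

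NF-kappaB signalling downstream of TLR4 and the TNF receptors runs on ubiquitin chains. TRAF adaptors and the cIAP ligases build such chains at activated receptors, and the chains recruit the kinases that lead to degradation of I-kappaB and release of NF-kappaB. A20, the product of Tnfaip3, is a ubiquitin-editing enzyme that dampens the pathway and is itself an NF-kappaB target in many cell types. The products of Tnip1 and Tnip3 (ABIN1 and ABIN3) bind A20 and ubiquitin chains. CYLD is a deubiquitinase that removes the chains. Traf1 and Traf2 encode adaptors of the TNF receptor family, and Birc2 and Birc3 encode cIAP1 and cIAP2, ubiquitin ligases that TRAF2 brings to the receptor. Tnfaip2 is grouped here by its name as a TNF-induced gene. Its product, M-Sec, resembles an exocyst subunit and is not known as a ubiquitin enzyme.

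Promoter sequences are shown first because NF-kappaB sites are the known link between LPS and several of these genes. Each promoter window holds 300 bases of mm9 (NCBIM37), from 250 bases before the start site to 50 bases from it onward, and is written 5′ to 3′ on the strand of the gene. The start site is that of the transcript with the longest coding sequence. Capitals mark matches on either strand to a 10-base NF-kappaB (kB) consensus.
Tnfaip3, chr10:18735167-18735466, minus strand: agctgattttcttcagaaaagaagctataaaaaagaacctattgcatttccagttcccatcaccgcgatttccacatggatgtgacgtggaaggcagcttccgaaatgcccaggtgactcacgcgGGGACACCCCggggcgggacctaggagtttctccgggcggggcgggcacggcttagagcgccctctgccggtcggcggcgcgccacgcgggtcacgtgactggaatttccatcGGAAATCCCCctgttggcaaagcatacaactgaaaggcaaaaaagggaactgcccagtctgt
Tnip1, chr11:54776370-54776669, minus strand: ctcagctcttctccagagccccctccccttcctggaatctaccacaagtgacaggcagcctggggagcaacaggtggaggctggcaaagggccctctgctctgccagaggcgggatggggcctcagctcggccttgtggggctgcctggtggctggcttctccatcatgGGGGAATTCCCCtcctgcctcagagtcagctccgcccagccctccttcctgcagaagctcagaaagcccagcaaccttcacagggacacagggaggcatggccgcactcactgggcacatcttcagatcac
In Tnfaip3 the site nearer the start begins 12 bases upstream of it and the other 125 bases upstream. An AP-1 match (TGANTCA, searched on both strands) begins 136 bases upstream, without overlap with the kB match beside it. The capitals of Tnip1 hold 3 overlapping matches, the first of which begins 81 bases upstream. The same consensus was present in the promoter windows of Tnip3, Birc3 (2 matches) and Cyld, shown here with 12 bases on each side.
Tnip3, chr6:65540326-65540359, plus strand: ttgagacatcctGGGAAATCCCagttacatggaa
Birc3, chr9:7873064-7873097, minus strand: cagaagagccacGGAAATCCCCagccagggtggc
Birc3, chr9:7873003-7873036, minus strand: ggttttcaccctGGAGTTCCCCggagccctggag
Cyld, chr8:91220760-91220793, plus strand: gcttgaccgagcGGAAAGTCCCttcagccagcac
These begin 54 bases upstream of the start in Tnip3, 61 bases upstream and at the start itself in Birc3, and 155 bases upstream in Cyld. In all, 5 of the 9 promoter windows held the kB consensus, against 4.87% of the windows of all 22350 protein-coding genes. It was not found in the windows of Tnfaip2, Traf1, Traf2 and Birc2, which says only that these letters are missing from 300 bases. A match is not a measured binding site, and NF-kappaB binding was not measured in these libraries.

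The windows differed in base composition as well. GC content ran from 33.0% (Birc2) and 42.3% (Tnip3) to 65.7% (Traf2), and the number of CpG dinucleotides from 0 (Tnip3) to 31 (Traf2), around medians over 22345 windows of 55.7% and 12. Tnfaip3, Tnfaip2, Traf2 and Cyld had 22 or more CpG, whereas Tnip1 and Traf1 had 4 each. The Birc2 window was exceptional because its GENCODE M1 record lacks the first part of the gene, as described with its values below.

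After 2 h of LPS the bodies of 6 of the 9 genes carried at least 2 times more Ser5 Pol_II than in untreated cells and no member carried at least 2 times less. Traf1 and Tnfaip3 had the highest ratios, more than 8 on a linear scale, followed by Tnfaip2 and Birc3, and then by Birc2 and Tnip1, whose order turned with the start used for Birc2 (2.94 on its GENCODE M1 record and 2.04 from its RefSeq start, against 2.34 for Tnip1). Tnip3 and Traf2 lay between 1.7 and 2, and Cyld, the deubiquitinase, was near its input level in both libraries. Birc2, counted among the 6, was also at low level on its GENCODE M1 record. Its body had 0.515 times the input density (0.360 to 0.729) untreated and 1.51 times (1.15 to 1.99) after LPS. From its RefSeq start the ratio includes start-site tags that cannot be told apart from those of another coding record. Of 17386 coding genes that reached 10 Ser5 tags, 5.82% passed the same limit upward and 11.2% downward, and the median ratio was 0.873 against 2.94 over the 9 members, or 2.34 with Birc2 from its RefSeq start. The 9 genes, and the gene lists used below, were chosen with earlier results of these data known. Their counts beside the shares of all genes are therefore descriptive only. Density is given throughout as tags per kb of the region, scaled to 1000000 tags of that library on the chromosomes used, so that genes of different length can be compared. In bulk samples such as these, more Ser5 Pol_II per cell and more cells carrying it cannot be told apart.

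**Figure D1:**
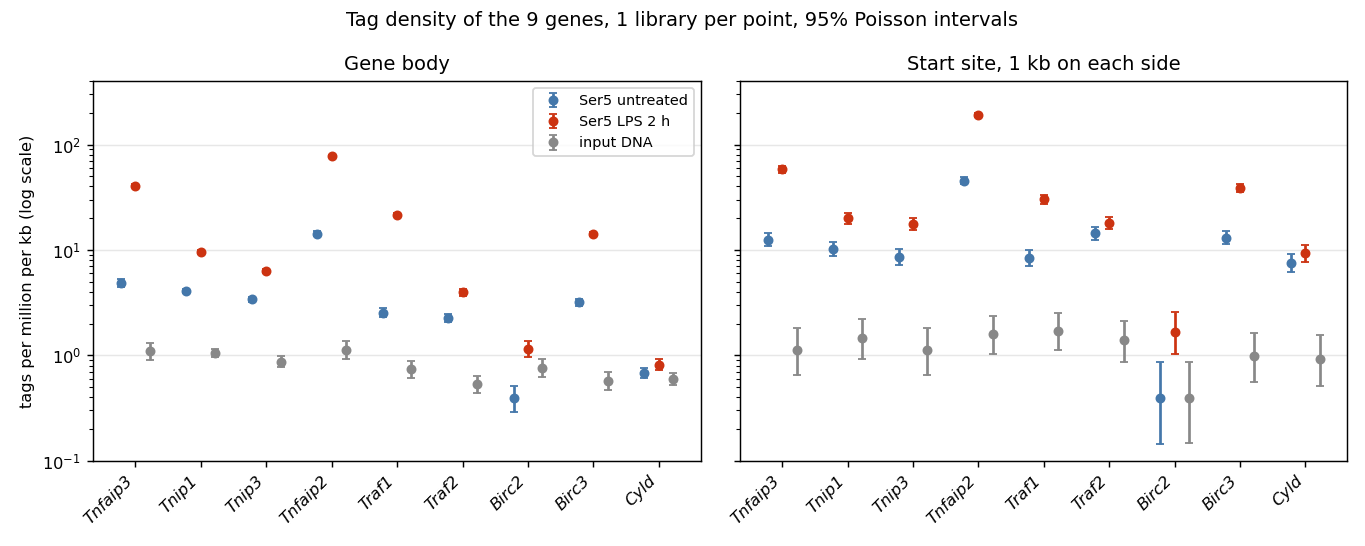
Tag density of the 9 genes over the gene body (left) and within 1 kb of the start site (right), in depth-scaled tags per kb on a log scale. Each point is 1 library with its 95% Poisson interval. After LPS the gene body densities run from 0.813 (Cyld) to 77.2 (Tnfaip2), and the start-site window of Birc2 is that of its GENCODE M1 record.

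Tnfaip3 lies on chromosome 10 (18720716 to 18735463, minus strand). Its body held 548 tags in untreated Ser5, 3744 after LPS and 122 in the input. The densities were 4.88 (4.48 to 5.30), 40.6 (39.3 to 41.9) and 1.10 (0.912 to 1.31) tags per kb. The gene was already occupied in untreated macrophages, at 4.44 times the input (3.64 to 5.45). LPS over untreated gave 8.33 (7.61 to 9.12), higher than the ratio of 99.7% of coding genes. Within 1 kb of the start site the counts were 191, 727 and 17 tags, a ratio of 4.64 (3.95 to 5.47).

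The 2 genes for A20-binding proteins had lower ratios. Tnip1 (chromosome 11, 54724289 to 54776419, minus strand) held 1623 tags untreated, 3120 after LPS and 415 in the input. Its density went from 4.09 to 9.58 tags per kb over an input of 1.06, a ratio of 2.34 (2.21 to 2.49). Tnip3 (chromosome 6, 65540392 to 65584034, plus strand) held 1126, 1730 and 286 tags. Its ratio of 1.87 (1.74 to 2.02) stayed under 2, with densities of 3.39 and 6.34. Both genes were above input in untreated cells, by 3.87 (3.47 to 4.32) and 3.89 times (3.42 to 4.45).

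At the start sites Tnip3 passed the 2-fold limit and Tnip1 did not. The Tnip3 window held 130 and 223 tags, a ratio of 2.09 (1.68 to 2.62), and the Tnip1 window 157 and 250 tags, a ratio of 1.94 (1.58 to 2.38). The intervals overlap widely, so the 2 genes cannot be separated at their starts at this depth. Scaled to the tags outside peaks, which lifts every ratio by a factor of 1.08, the Tnip1 start and the Tnip3 body also passed 2, at 2.09 and 2.01. With 1 tag kept per position and strand the Tnip3 start was just under it, at 1.99.

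Tnip1 has a second annotated start, that of the transcript Tnip1-202, 6872 bp into the gene. Within 500 bp of it 123 tags lay in untreated Ser5 and 163 after LPS, a ratio of 1.62 (1.27 to 2.06), close to the 1.63 (1.3 to 2.06) of the upstream start. Its window is shown because the 2 starts differ in base composition while carrying similar tag counts (132 and 177 at the upstream one).
Tnip1-202, chr11:54769498-54769797, minus strand: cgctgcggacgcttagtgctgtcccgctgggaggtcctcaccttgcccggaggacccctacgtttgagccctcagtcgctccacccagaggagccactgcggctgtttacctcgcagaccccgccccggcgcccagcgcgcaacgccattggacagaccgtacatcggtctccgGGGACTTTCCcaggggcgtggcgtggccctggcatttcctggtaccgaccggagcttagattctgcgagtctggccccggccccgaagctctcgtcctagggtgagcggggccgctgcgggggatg
It held 29 CpG against 4 at the upstream start, and 1 kB match, in capitals.

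Traf1, an adaptor that lacks the RING domain of other TRAF proteins, had the highest gene body ratio of the 9. On chromosome 2 (34797270 to 34817292, minus strand) it held 388 tags untreated, 2701 after LPS and 111 in the input. The density was 2.54 (2.30 to 2.81) before and 21.6 (20.8 to 22.4) after LPS, a ratio of 8.48 (7.62 to 9.46), whose interval overlaps that of Tnfaip3. The start-site counts of 128 and 377 gave a ratio of 3.59 (2.93 to 4.42).

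Traf2, the adaptor that carries the cIAP proteins to TNF receptors, stayed within 2-fold. Also on chromosome 2 (25373502 to 25402460, minus strand), it held 501 tags untreated, 717 after LPS and 116 in the input. The gene body ratio was 1.74 (1.55 to 1.96). Its start-site window was nearly even, with 219 and 225 tags and a ratio of 1.25 (1.03 to 1.52). Traf2 had the second highest start-site density of the 9 in untreated cells on the GENCODE M1 starts (14.4 tags per kb, 12.5 to 16.4), with an interval that overlaps that of Birc3 (13.1).

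Birc3 and Birc2 are neighbours on chromosome 9 and both lie on the minus strand. Birc3 (7848699 to 7873186) held 596 tags untreated, 2154 after LPS and 106 in the input. The density went from 3.20 (2.94 to 3.46) to 14.1 (13.5 to 14.7), a ratio of 4.4 (4.02 to 4.83). At the start the counts were 199 and 481, a ratio of 2.95 (2.49 to 3.49). Of the 30-base words in this gene body 15.7% occur more than once in the genome, the highest share of the 9 genes, and of the 45-base words 10.8%. LPS tags were 30 bases long and untreated tags 45, and the part of this difference in the ratio was not tested.

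For Birc2 the values depended on where the gene is taken to start. The GENCODE M1 record (7818236 to 7835255) held 51 tags untreated, 123 after LPS and 98 in the input. Its untreated density of 0.393 was under that of the input (0.764), and its ratio was 2.94 (2.10 to 4.16). The start-site window of that record had only 6 and 21 tags, with a ratio of 4.27 (1.67 to 12.9). The RefSeq start, placed by an exact match of its promoter sequence, lies 1802 bp upstream, at position 7837057 of chromosome 9. There 390 tags lay within 1 kb in untreated Ser5, 410 after LPS and 19 in the input. That is 25.6 and 32.8 tags per kb and a ratio of 1.28 (1.11 to 1.48).
Birc2 at its RefSeq start, chr9:7837008-7837307, minus strand: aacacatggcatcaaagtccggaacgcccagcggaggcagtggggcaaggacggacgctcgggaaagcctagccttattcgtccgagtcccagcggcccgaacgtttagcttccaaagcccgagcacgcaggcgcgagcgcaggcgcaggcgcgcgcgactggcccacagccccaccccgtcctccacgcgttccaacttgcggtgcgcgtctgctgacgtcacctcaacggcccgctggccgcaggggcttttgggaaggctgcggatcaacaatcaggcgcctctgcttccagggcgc
This window, shown because it replaces that of the truncated record, has 34 CpG and no kB match. From the RefSeq start to the gene end the ratio was 2.04 (1.70 to 2.45), with 189 tags untreated, 316 after LPS and 110 in the input. The start of another coding record, C330006D17Rik, lies close to this RefSeq start, so tags of both records there cannot be told apart. With that limit, the Birc2 RefSeq window held more Ser5 tags than the Birc3 start window in untreated cells and had a lower ratio. The choice of the RefSeq start was made after a Ser5 peak had been seen outside the record.

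Cyld (chromosome 8, 91220927 to 91275844, plus strand) held 285 tags untreated, 279 after LPS and 246 in the input over its body. The densities were 0.681, 0.813 and 0.595 tags per kb, with a ratio of 1.19 (1.01 to 1.41). Past the first 1 kb the density was 0.528 untreated and 0.611 after LPS, against 0.588 in the input. Averaged over that stretch neither library differed from input beyond counting error (0.898 times, 0.744 to 1.08, and 1.04 times, 0.858 to 1.26). One small peak near the gene end was called in each list, with 11 tags in its own library. The start was occupied: 115 tags untreated, 116 after LPS and 14 in the input, or 8.12 (4.65 to 15.3) and 9.99 (5.72 to 18.8) times the input. LPS over untreated there gave 1.23 (0.942 to 1.61).

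Tnfaip2 had the highest Ser5 density per kb of the 9 genes in both states. On chromosome 12 (112680680 to 112693229, plus strand) it held 1370 tags untreated, 6056 after LPS and 106 in the input. The density was 14.3 (13.6 to 15.1) in untreated cells and 77.2 (75.3 to 79.2) after LPS, a ratio of 5.39 (5.08 to 5.72). Its start-site window held 690 and 2372 tags, a ratio of 4.19 (3.85 to 4.57).

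In untreated cells the gene body densities of Tnip3 and Birc3 had overlapping intervals, as did those of Traf1 and Traf2 (2.54 and 2.27). After LPS none of the 9 intervals overlapped its neighbour in the order of levels, which ran from Tnfaip2 through Tnfaip3, Traf1, Birc3, Tnip1, Tnip3, Traf2 and Birc2 to Cyld. Traf1 and Birc3, close to Traf2 and Tnip3 in untreated cells, were among the 4 highest after LPS.

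**Figure D2:**
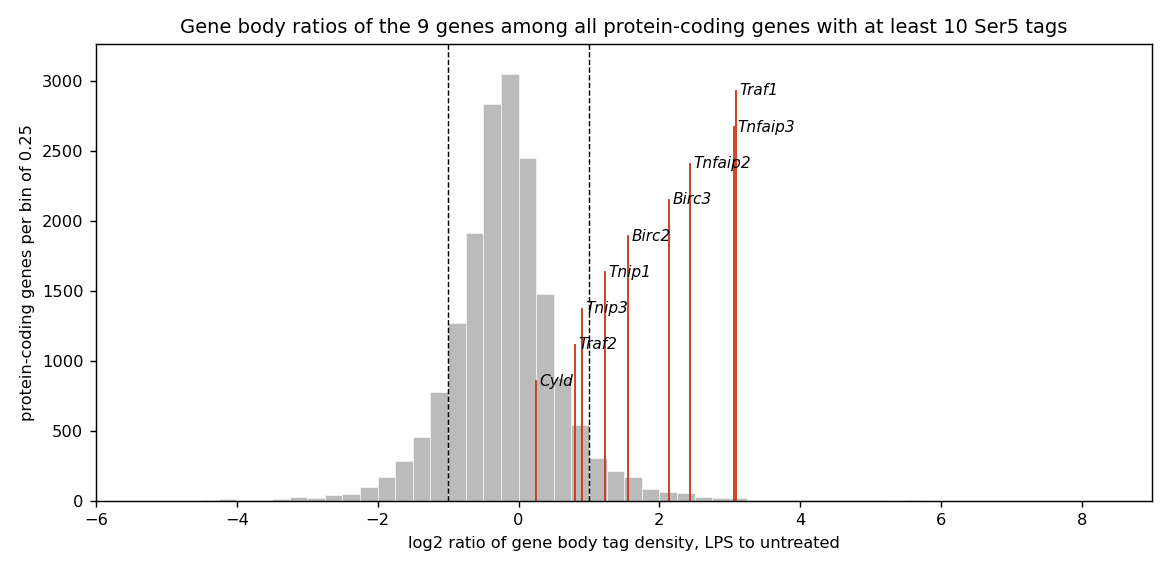
Number of protein-coding genes per bin of 0.25 in the log2 ratio of gene body density, LPS to untreated, for 17386 genes. Red lines mark the 9 genes, with heights set only to separate the names, and dashed lines mark a 2-fold difference. The median of all genes is 0.873 on a linear scale, and all 9 lines lie to the right of it.

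At the start sites, too, 6 of the 9 genes were at least 2 times higher and 0 lower. The background over 12581 genes was 5.71% higher and 14.1% lower, with a median of 0.834 against 2.95 for the members. With RefSeq starts, which moved Birc2 inside the limit, 5 of 9 were higher. A deposited Ser5 peak overlapped the window in 8 of 9 genes in untreated cells and in 9 of 9 after LPS, against 47.9% and 45.9% of all coding genes. The exception was Birc2 at its GENCODE M1 start. At its RefSeq start, close to that of C330006D17Rik, a peak was called in both lists. The scores (minus 10 times the log10 of the MACS p-value) were 2775.40 and 2929.50. Because that start was chosen after a Ser5 peak had been seen, its peak is not added to the 8 of 9 in untreated cells.

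**Figure D3:**
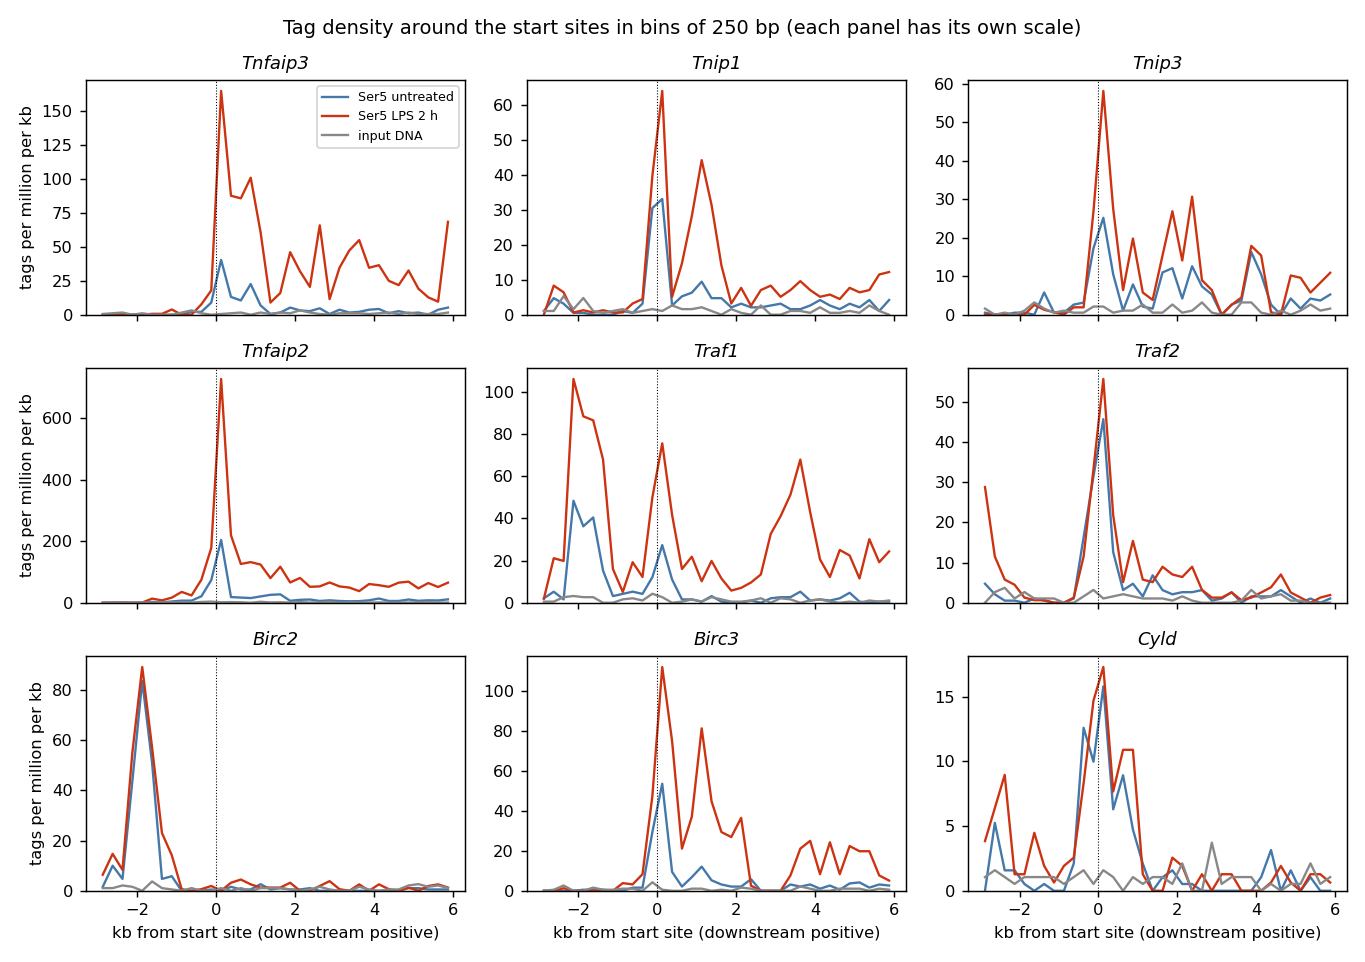
Tag density around the 9 start sites in bins of 250 bp, from 3 kb upstream to 6 kb downstream, in tags per kb; panels have different scales. Blue is untreated Ser5, red Ser5 after LPS and grey input. Traf2 and Cyld have blue and red lines of similar height at the start, and Birc2 has its signal about 1.8 kb upstream of the GENCODE M1 start. The highest Traf1 bin lies upstream, at -2125 bp (48.3 untreated and 106 after LPS, against 27.3 and 75.5 at 125 bp).

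For several genes the difference was larger along the body than at the start. Past the first 1 kb the Tnfaip3 density went from 3.55 to 35.9, a ratio of 10.1 (9.07 to 11.3), against 4.64 (3.95 to 5.47) at the start. Traf1 had 9.70 (8.61 to 11) against 3.59. For Tnfaip2 it was 6.26 (5.79 to 6.77) against 4.19, and for Birc3 5.13 (4.61 to 5.73) against 2.95. In each of these 4 genes, and in Traf2 (1.84, 1.61 to 2.11, against 1.25), the intervals of body and start did not overlap. How many coding genes differ in this way was not counted. Tnip1, Tnip3, Cyld and Birc2 on its GENCODE M1 record had overlapping intervals.

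The same values can be read as the quotient of start-site density over body density. In Tnfaip3 it went from 3.53 to 1.62 and in Traf1 from 3.94 to 1.46. It also went down in Tnfaip2 (5.13 to 3.44), Birc3 (5.66 to 3.25), Traf2 (8.37 to 5.69) and Tnip1 (2.62 to 2.17), and up in Tnip3 (2.66 to 3.06) and Cyld (14.3 to 15.2). The median over 9926 coding genes was 10.9 untreated and 10.2 after LPS. Except for Cyld, the members with a quotient in both libraries thus had less Ser5 at the start relative to the body than the median gene.

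**Figure D4:**
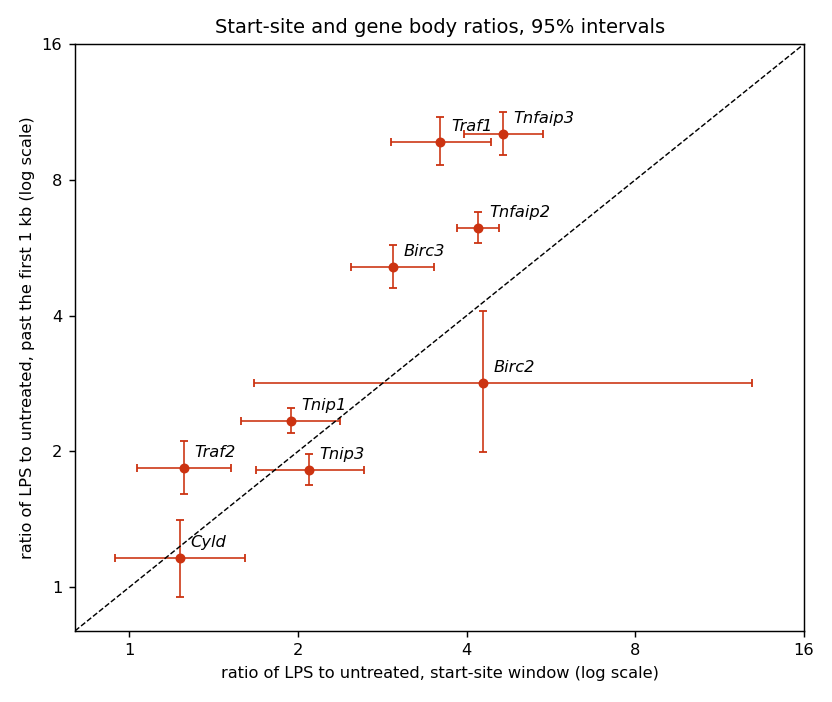
Ratio of LPS to untreated in the start-site window (x axis) and past the first 1 kb of the gene (y axis), both on log scales, with 95% intervals for counting error. The dashed line marks equal ratios. Tnfaip3, Traf1, Tnfaip2, Birc3 and Traf2 lie above the line, and the wide bars of Birc2 come from the few tags in its GENCODE M1 window.

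The share of the body covered by deposited peaks differed between the libraries by very different amounts from gene to gene. The change in this share over all coding genes was not computed. Tnfaip3 had 5 separate peaks that covered 29.1% of its body in untreated cells, and 3 peaks that covered 97.6% after LPS. For Traf1 the covered share went from 16.7% to 92.5%, for Tnip1 from 30.7% to 82.5%, for Birc3 from 19.8% to 71.9% and for Tnip3 from 24.8% to 51.0%. Tnfaip2 was covered over 88.5% even before LPS and over 99.4% after it. Traf2 went from 8.85% to 25.2%, whereas Cyld stayed at 2.28% and 2.33%. On its GENCODE M1 record Birc2 went from 0 to 2.17%, through 1 peak of 370 bp. Scores reach a cap of 3100.00 in both lists, in untreated cells at a Tnfaip2 peak and after LPS at all 3 Tnfaip3 peaks. They were therefore not compared between lists.

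Ser5 tags also lay past the annotated gene ends, where other gene records were not excluded. In the 5 kb after the end, Traf1 had 47 tags untreated and 528 after LPS, a ratio of 13.7 (10.1 to 18.9), and Tnfaip2 217 and 1444, a ratio of 8.11 (7.03 to 9.40). Tnfaip3 had 111 and 548 (6.02, 4.90 to 7.45) and Birc3 96 and 275 (3.49). Tnip1 had 321 and 640 (2.43), at densities of 8.43 and 20.5 tags per kb, higher than in its body (4.09 and 9.58). Tags of a neighbouring gene there cannot be told apart from those of Tnip1. Cyld had 71 and 32 there, a ratio of 0.549 (0.350 to 0.845), the only interval of the 9 below 1.

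Among the annotated internal starts, one in Tnfaip3 and one in Traf1 had the highest ratios. At the start of Tnfaip3-002, 3447 bp into the gene, 21 tags lay within 500 bp in untreated Ser5 and 256 after LPS, a ratio of 14.9 (9.51 to 24.4). At that of Traf1-203, 3638 bp into Traf1, the counts were 23 and 296, a ratio of 15.7 (10.3 to 25.1). Both ratios exceed those of the upstream starts within 500 bp, 4.33 (3.54 to 5.33) and 3.28 (2.61 to 4.15). Elongating Pol_II from the upstream start and Pol_II at an internal start cannot be told apart in these libraries.

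Traf1 also had Ser5 Pol_II upstream of the gene, in a stretch without a coding gene record. This was noticed in the start-site profiles, after which the regions of deposited peaks lying outside coding genes with midpoints 1 to 5 kb upstream of a member were listed. Traf1 had 2. The nearer one (chromosome 2, 34818192 to 34820107, midpoint 1858 bp upstream) held 290 tags untreated, 639 after LPS and 26 in the input. Its densities were 19.9 and 53.4 tags per kb, and its ratio was 2.69 (2.33 to 3.10). A region bounded by peaks was selected for signal, so its densities are not compared with those of the fixed Traf1 start-site window. The farther one (34820215 to 34821897) held 104, 179 and 16 tags, a ratio of 2.10 (1.64 to 2.70), and overlaps a short pseudogene record, Gm13450. The nearest other coding start, that of Phf19, is 49654 bp from the first region. The central 300 bases of the first region are shown, on the plus strand, because it held the most Ser5 tags of the regions listed upstream of members.
Traf1 upstream region, chr2:34819000-34819299, plus strand: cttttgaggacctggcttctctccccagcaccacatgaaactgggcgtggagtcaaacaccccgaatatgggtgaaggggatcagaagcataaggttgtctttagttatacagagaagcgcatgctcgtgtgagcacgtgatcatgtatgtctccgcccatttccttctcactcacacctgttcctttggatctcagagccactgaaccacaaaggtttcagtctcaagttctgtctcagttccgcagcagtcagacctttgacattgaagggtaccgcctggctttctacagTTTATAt
They hold no match to kB, AP-1 or PU.1 (GAGGAAGT), and capitals mark a TATAAA match on the opposite strand near the end.

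Upstream of Traf2 a region was called as a peak after LPS and not before. A region 2716 bp upstream (chromosome 2, 25404872 to 25405421) held 13 tags untreated, 66 after LPS and 8 in the input. Its ratio was 6.19 (3.38 to 12.2). A region listed only through its LPS peak was selected for such a ratio, so it is not compared with the Traf2 start window, which was set without regard to signal. The nearest other coding start, that of Edf1, is 8220 bp away. Its central 300 bases are shown because they hold 2 kB matches and 1 AP-1 match, all in capitals.
Traf2 upstream region, chr2:25404997-25405296, plus strand: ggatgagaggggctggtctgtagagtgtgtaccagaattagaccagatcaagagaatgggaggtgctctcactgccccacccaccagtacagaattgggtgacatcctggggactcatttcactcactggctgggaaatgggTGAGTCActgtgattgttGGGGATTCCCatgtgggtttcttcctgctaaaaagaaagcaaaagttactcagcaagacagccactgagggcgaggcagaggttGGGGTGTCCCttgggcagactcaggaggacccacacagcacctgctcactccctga
A further region 4392 bp upstream had 5 and 9 tags. Of the 8 windows listed upstream of members, 2 held the kB consensus (that shown and that of Birc2) and 3 the AP-1 match. Over all 16264 such regions of the genome, 4.4% of the 300-base windows held the kB consensus and 13.2% the AP-1 match.

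Cyld had 1 upstream region, 2686 bp from its start, with 13 tags untreated, 31 after LPS and 7 in the input (ratio 2.91, 1.48 to 6.05). It was a peak only in the LPS list, which selects regions that are higher after LPS, and the interval does not cover that selection. Tnip3 had 2, with 13 and 3 tags at 4846 bp and 11 and 0 tags at 1304 bp, both peaks only in the untreated list, which selects regions that are lower after LPS. The ratio of the first was 0.281, with an interval that reached 1 (0.0514 to 1.02). Birc2 had 1, with 3 and 9 tags, also a peak only in the LPS list, which lies 1288 bp from the start of C330006D17Rik. None was found for Tnfaip3, Tnip1, Tnfaip2 or Birc3. Of the 15021 extragenic regions in the genome that reached 10 tags, 21.8% passed the 2-fold limit upward and 35.8% downward.

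Around Tnfaip3 no other gene record of any type lies within 100 kb, so Ser5 regions there can be listed without a second gene. There were 4 deposited peaks in untreated cells and 10 after LPS outside the gene and more than 1 kb from its starts, which merged into 11 regions. Of these, 8 passed the 2-fold limit upward and 0 downward, where the background is the 21.8% and 35.8% above. The count says little by itself, because 7 of the 8 were peaks only in the LPS list and so had been selected for a high LPS signal. Genome-wide 76.8% of regions called only after LPS passed the limit upward, against 10.2% of those called in both lists. Of the 3 regions at Tnfaip3 called in both lists, 1 was at least 2 times higher, the only one of them just past the gene end. Together the 11 regions held 236 tags untreated, 734 after LPS and 83 in the input. Their ratio was 3.79 (3.27 to 4.41), a sum that the same selection enters.

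Most of the LPS tags in that sum came from the end of the gene. The 3 regions past the Tnfaip3 end, which overlap the 5 kb counted above, held 92 tags untreated and 520 after LPS, a ratio of 6.89 (5.51 to 8.69). The largest (18717720 to 18719722) had 70 and 434 tags, a ratio of 7.56 (5.86 to 9.87), close to that of the gene body, and the others had 13 and 68 tags (18720230 to 18720712) and 9 and 18 tags (18716210 to 18716556). Without these 3, the other 8 regions had 144 and 214 tags, 51 in the input and a ratio of 1.81 (1.46 to 2.25). Of them 5 were at least 2 times higher, all of them peaks only in the LPS list, and the 3 also or only called in untreated cells were within 2-fold. The genome-wide share without gene ends was 23.8%.

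**Figure D5:**
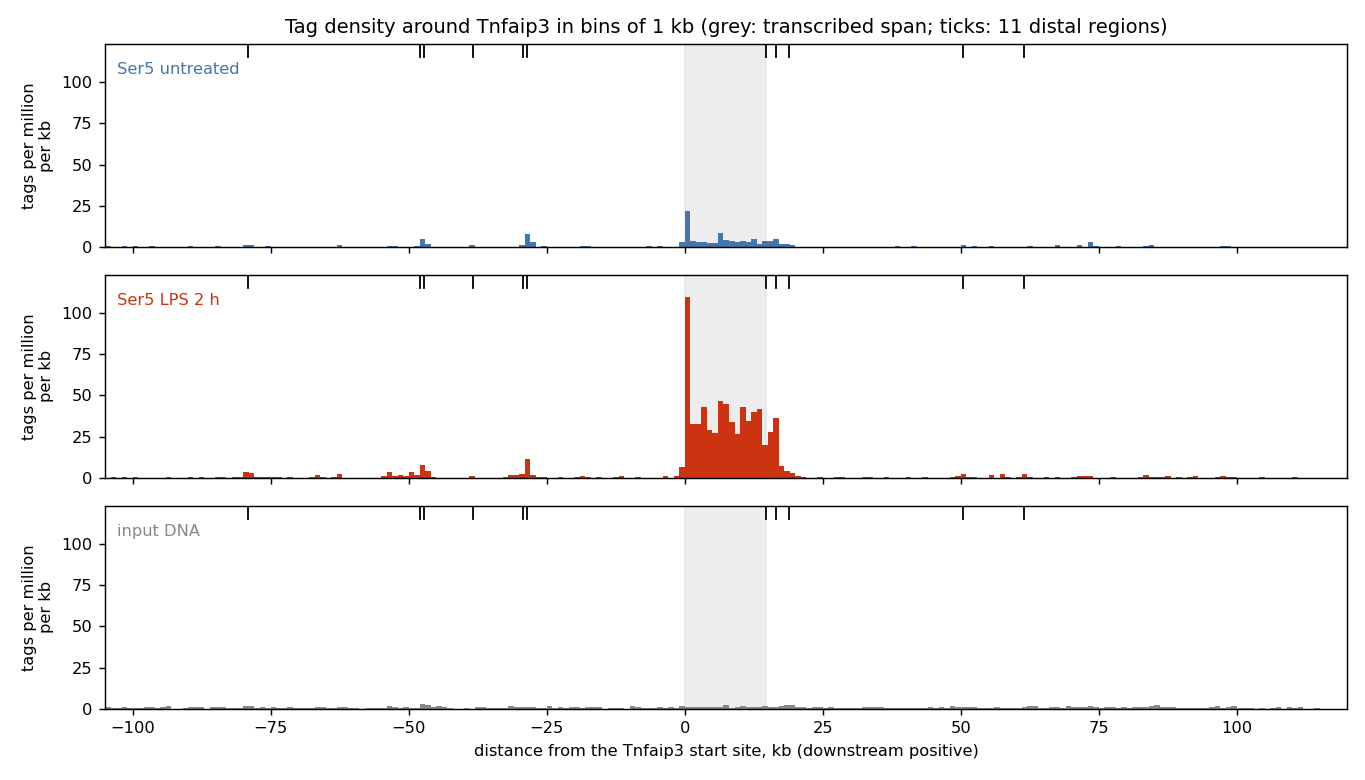
Tag density around Tnfaip3 in bins of 1 kb, in tags per kb, by distance from its start site in kb (downstream positive), for untreated Ser5, Ser5 after LPS and input. Grey shading is the transcribed span and ticks mark the 11 distal regions. After LPS the signal fills the gene and runs past its end, and the upstream regions stand far below it.

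Upstream of Tnfaip3 the strongest region (18763541 to 18764105, midpoint 28607 bp from the start) was occupied before LPS. It held 59 tags untreated, 67 after LPS and 6 in the input, 13.7 and 19 tags per kb. The ratio of 1.38 (0.961 to 2.00) stayed within 2-fold, in contrast to 8.33 in the gene body. A second one, 47192 bp upstream (18781849 to 18782967), held 47 and 61 tags but also 28 in the input, where its untreated density was only 1.66 times that of the input (1.02 to 2.75). Farther out, 79043 bp upstream, a region with a peak only after LPS (18814024 to 18814494) held 14 and 30 tags, a ratio of 2.61 (1.34 to 5.33). All 6 upstream regions together had a ratio of 1.67 (1.34 to 2.10), and the 5 downstream regions 6.82 (5.49 to 8.56). Both sums include regions that were peaks only in the LPS list and so were selected for a high LPS signal. The intervals do not cover that selection.

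Downstream of the gene and away from its end there were 2 small regions. The one at 61461 bp from the start had 0 tags untreated, 12 after LPS and 4 in the input. The one at 50364 bp had 5 and 11 tags. The latter was the only one of the 11 whose central 300 bases held the kB consensus, in capitals here, and it is shown for that reason.
Tnfaip3 downstream region, chr10:18684703-18685002, plus strand: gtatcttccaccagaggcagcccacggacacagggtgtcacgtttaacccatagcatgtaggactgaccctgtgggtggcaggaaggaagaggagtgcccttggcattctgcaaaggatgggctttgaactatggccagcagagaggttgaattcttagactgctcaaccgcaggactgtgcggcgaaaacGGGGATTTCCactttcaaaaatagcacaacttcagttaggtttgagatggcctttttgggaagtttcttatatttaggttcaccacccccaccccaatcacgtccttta
A PU.1 match was found in 1 of the 11, the region 79043 bp upstream, against 5.58% of all such windows.

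The wider set of 50 genes of ubiquitin-linked NF-kappaB and TNF receptor signalling held a mixture. All 50 were found, and 10 had gene bodies at least 2 times higher after LPS, 3 at least 2 times lower and 37 within 2-fold, with a median of 1.16. Over all coding genes the shares were 5.82% and 11.2%, and the 3 lower genes are no larger a share than that. The highest were Peli1, a ubiquitin ligase of TLR signalling (526 and 3225 tags, ratio 7.47), and Cd40, a TNF-receptor family member that signals through TRAF proteins (230 and 1234, ratio 6.54). Tnfrsf1b, the second TNF receptor, had 1619 and 7118 tags (5.36). Trafd1, a TRAF-type zinc finger protein, had a ratio of 4.05, Usp18, which removes the ubiquitin-like ISG15, 3.80, and Ripk2, the kinase of NOD receptors, 3.60.

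The 3 lower genes were Fadd, a death-domain adaptor (355 and 113 tags, ratio 0.388, 0.311 to 0.481), Peli2 (744 and 259, 0.424) and Map3k14, the kinase NIK of the alternative NF-kappaB pathway (1007 and 391, 0.473). The Peli2 body after LPS, at 0.296 tags per kb, was below its input density of 0.599.

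Among 11 genes for NF-kappaB subunits and I-kappaB proteins, 8 were at least 2 times higher in the body and 0 lower, beside 5.82% and 11.2% of all coding genes, with a median of 3.12. Nfkbia, the classical inhibitor and feedback gene, had 1136 and 5765 tags and a ratio of 6.18 (5.80 to 6.60), below that of Tnfaip3. Nfkb1 had 5.61 (5.30 to 5.93) and Nfkbiz 5.55 (5.14 to 6.00). At the start sites 4 of the 11 were at least 2 times higher, beside 5.71% of all coding genes. The gene body density of Nfkbia after LPS, 285 tags per kb, was higher than that of each of the 9 genes.

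The genes most like Tnfaip3 were taken by Euclidean distance over the log2 gene body densities of the 2 Ser5 libraries, among 14327 other coding genes with at least 50 tags. They were Gm17334 (distance 0.037), Isg15 (0.072), which encodes a ubiquitin-like protein, Icam1 (0.441), an adhesion molecule, Tnfrsf1b (0.458) and 8430408G22Rik (0.643). Isg15 held 50 tags untreated and 339 after LPS, 4.71 and 38.9 tags per kb, and Icam1 480 and 2401 tags, 4.91 and 29.9. Likeness over 2 libraries rests on 2 values per gene.

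The libraries held 7616771 tags (untreated Ser5), 6249819 (Ser5 after LPS) and 7533308 (input) on the chromosomes used. All 7 genes listed as known responders to LPS had gene bodies at least 2 times higher after LPS, with a median ratio of 20.4. Of 8 macrophage markers, 8 were at least 2 times above input in untreated cells and 7 after LPS, the exception being Itgam. Their gene bodies were not level between the libraries: 4 of the 8 were at least 2 times lower after LPS (among them Itgam, 0.229, Cd68, 0.263, and Lyz2, 0.405) and 2 at least 2 times higher (Emr1, 3.01, and Cd14, 3.18). Of all coding genes that reached 10 Ser5 tags, 11.2% were lower and 5.82% higher by the same limit. The part of this marker shift in the members' ratios was not tested. Markers of T cells (1 of 4, Lck), B cells (0 of 4), fibroblasts (0 of 4), epithelial cells (0 of 4) and erythroid cells (1 of 3, Klf1) were rarely at least 2 times above input in untreated cells. The share of all coding genes that far above input was not counted.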

How the data were processed

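ChIP-Seq tags were analysed from the files that the authors deposited. Per the study's methods, the authors shortened the Ser5 reads from the 3′ end and mapped them with Bowtie (mm9, also in the submitters' processing notes), where only uniquely placed reads with up to 2 mismatches were retained. MACS called peaks per Ser5 library, with the input as control and a p-value limit of 1e-05. Versions are not given in the sources used here. The methods name 30 bases for untreated tags and 45 for LPS, whereas the deposited files hold 45 and 30, and 36 in the input. The deposited peak score is minus 10 times log10 p. It was used only to select peaks and to describe them within a list.

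The 5′ ends of the tags were counted in gene records and start-site windows of GENCODE M1, and peaks were merged where they overlapped. A difference was called by size alone: at least 2 times higher or lower, given a sum of 10 tags or more in the Ser5 libraries, with 0 tags set to 0.5 for this rule. Intervals are exact Poisson for counts and, for ratios, exact binomial given the summed tags, and duplicate tags, which were kept, make them too narrow. Genes named outside the 9 are the 6 highest and the lower ones of the 50-gene list, the 5 most like Tnfaip3, and examples from the NF-kappaB list, and for distal regions the 6 at Tnfaip3 with the most tags; the smaller regions and those upstream of other members were chosen after their values were seen. The 9 genes and the lists were chosen with earlier results of these data known. RefSeq promoter sequences (GRCm38.p6) matched exactly 1 place each on the gene's own chromosome and strand for all 9 genes, and other chromosomes were not searched. Tnfaip3 and Birc2 had 2 entries each, of which the first was used. Motifs were matched on both strands. Distal regions were also counted by the peak list that called them, a split added after seeing the data. Alternatives were other scaling, 1 tag per position and strand, tags moved by 75 bp, other windows, starts, folds and tag minimums, and stricter peaks. Python 3.11.15, numpy 2.4.6, scipy 1.17.1, numba 0.67.0 and matplotlib 3.10.9 were used, and counting and intervals were tested on simulated data.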

Additional observations from a re-analysis of the deposited data

How the results depend on the processing

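Of 91 gene-level ratios recomputed under other settings, 81 stayed inside the 95% interval of the reported ratio, 10 left it and 0 changed direction. Scaling to tags outside the peaks shifted every log2 ratio by 0.11. The count of members at least 2 times higher ranged from 4 (3-fold limit) to 8 (1.5-fold limit) in the body and from 4 to 7 at the start, and 0 were lower under any setting tried. The Tnfaip3 distal results moved more. With peaks of p of at most 1e-10 there were 2 in untreated cells and 4 after LPS. Without regions up to 10 kb past gene ends, an alternative chosen after seeing the data, 5 regions, all peaks only in the LPS list, were at least 2 times higher and the summed ratio was 1.81, since the 3 regions left out held most of the tags. The Birc2 start ran from 1.28 at its RefSeq start to 5.28 with tags moved by 75 bp. Few tags limit the smaller distal regions, and the shorter LPS tags limit repeated sequence; their part in the ratios was not tested. No paired analysis was possible because each condition has 1 library.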
